A study of Homo sapiens with 2 samples.

Results

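Intergenic peaks lying within 100 kb of a gene start were examined in a map of JARID2 on the chromatin of MDA-MB-231 cells, a human triple-negative breast cancer line with mesenchymal features. They were the rows of the authors' annotated peak list whose class was distal intergenic and whose absolute distance to the nearest transcription start site (TSS) was below 100 kb. This gave 20477 of 67071 listed peaks (30.5%, 95% exact binomial interval 30.2 to 30.9) and 83.3% of the 24568 distal intergenic peaks. The study had 1 library of untreated cells precipitated with a polyclonal JARID2 antibody and 1 library of input DNA from the same line, untreated and without an antibody. Values from the JARID2 library were analysed here. There was no replicate, so each fold enrichment, tag count and false discovery rate (FDR) is the authors' value for 1 peak, and intervals cover counting error only. Coordinates are those of hg19. The nearest transcripts are the ones the authors' annotation chose by TSS.

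JARID2 is an accessory subunit of Polycomb repressive complex 2 (PRC2), which methylates lysine 27 of histone H3 and helps to keep developmental genes silent. In embryonic stem cells JARID2 and PRC2 are best known from CpG-rich promoters of developmental regulators. Intergenic sequence around genes holds enhancers, promoters of unannotated transcripts and repeats, and a peak there does not show which gene, if any, it acts on.

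Typical members of this set were small peaks of few tags with a high FDR. Fold enrichment, the ratio of ChIP tags to the caller's background, had a median of 6.02 (interquartile range 5.30 to 6.85) and ran up to 21.98. Tags per peak had a median of 12 (10 to 15), and 12 tags carry a 95% Poisson interval of 6.20 to 20.96. The median width was 500 bp (439 to 609). The median FDR was 44.54%, and 14813 of the peaks (72.3%) had an FDR above 40%. The fold enrichment took 587 distinct values, and 2600 of the peaks (12.7%) shared the value 6.18. Together the peaks held 285037 tags, 28.5% of the tags in all listed peaks, over 11.2 Mb.

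Of the intergenic peaks within 100 kb, 103 had an FDR of 5% or less (0.503%, 0.411 to 0.610), as did 1.24% of all listed peaks. An FDR of 20% or less was found for 553 (2.70%) and for 4.15% of all listed peaks. At the 5% limit the share was 0.293% (0.152 to 0.512) of the 4091 intergenic peaks at 100 kb or farther, 0.325% (0.258 to 0.404) of intron peaks and 0.645% (0.389 to 1.01) of promoter peaks 2 to 3 kb from a TSS. Promoter peaks within 1 kb had 7.36% (6.76 to 7.98). An FDR of 0 was given to 13 of the intergenic peaks within 100 kb (0.0635%, 0.0338 to 0.109) and to 0.377% of all listed peaks. Of the 4091 farther intergenic peaks 0 had it, which allows a share of up to 0.0733%. A −log10 p of at least 5 was reached by 11.2% (10.8 to 11.6) of the intergenic peaks within 100 kb, 10.0% (9.09 to 10.96) of the farther ones and 12.9% of all listed peaks. A fold enrichment of at least 10 was found in 108 of the intergenic peaks within 100 kb (0.527%) and in 1.04% of all listed peaks. Peaks are not replicates of a condition, so these differences carry no test.

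**Figure D1:**
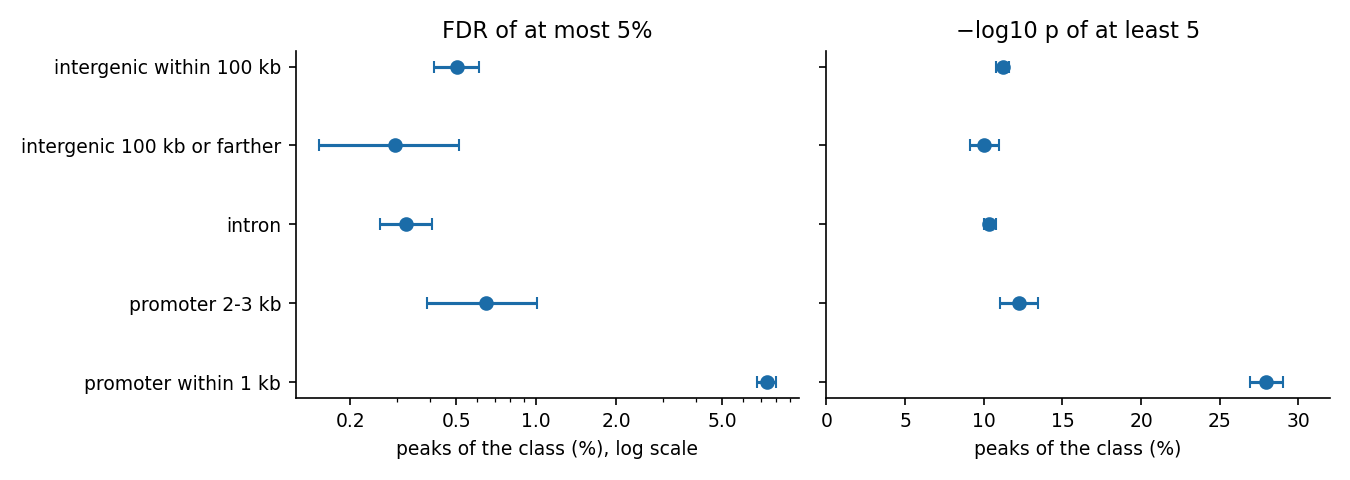
Share of peaks in each annotation class at an FDR of at most 5% (left, log scale) and at a −log10 p of at least 5 (right), in percent, for the 1 JARID2 library. Points are shares and bars are 95% exact binomial intervals. At the FDR limit, intergenic peaks within 100 kb stood at 0.503% and promoter peaks within 1 kb at 7.36%.

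Peaks at an FDR of at most 5% took their largest share close to a TSS and their smallest far from one, while the median height hardly moved. At 3 to 5 kb, 15 of 1143 peaks had an FDR of at most 5% (1.31%, 0.736 to 2.16). At 5 to 10 kb it was 19 of 2932 (0.648%, 0.391 to 1.01) and at 10 to 20 kb 29 of 4531 (0.640%, 0.429 to 0.918). At 20 to 50 kb it was 31 of 7138 (0.434%, 0.295 to 0.616) and at 50 to 100 kb 9 of 4733 (0.190%, 0.0870 to 0.361). The intervals of the nearest and the farthest bin do not overlap, and those of neighbouring bins do. The median fold enrichment in the 5 bins lay between 5.95 and 6.09 and the median tag count was 12 in each.

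The order of the bins differed between kinds of nearest transcript, but the bins that changed places had overlapping intervals. For peaks nearest to a protein-coding TSS these intervals were 0.242 to 1.43 at 5 to 10 kb and 0.603 to 1.77 at 10 to 20 kb. Among peaks nearest to a protein-coding TSS the shares at an FDR of at most 5% were 1.88% (7 of 372), 0.659% (6 of 911), 1.07% (15 of 1396), 0.504% (9 of 1786) and 0.239% (2 of 836) from the nearest bin to the farthest. Among the other peaks they were 1.04% (8 of 771), 0.643% (13 of 2021), 0.447% (14 of 3135), 0.411% (22 of 5352) and 0.180% (7 of 3897). The lowest share was in the farthest bin for both kinds.

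Upstream and downstream peaks were about as high as each other. Upstream of the nearest TSS lay 11745 peaks (57.4%, 56.7 to 58.0), with a median fold enrichment of 6.0, and downstream lay 8732, with 6.06. The 5% limit was met by 67 of the upstream peaks (0.570%, 0.442 to 0.724) and 36 of the downstream peaks (0.412%, 0.289 to 0.570), with overlapping intervals. Of the 13 peaks with an FDR of 0, 11 lay upstream. The upstream share fell along the bins, with 80.6% at 3 to 5 kb, 62.7% at 5 to 10 kb, 58.9% at 10 to 20 kb, 54.3% at 20 to 50 kb and 51.4% at 50 to 100 kb. Sequence just downstream of a TSS usually lies inside the gene, where the annotation gives another class. The part of the class in this order was not tested.

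**Figure D2:**
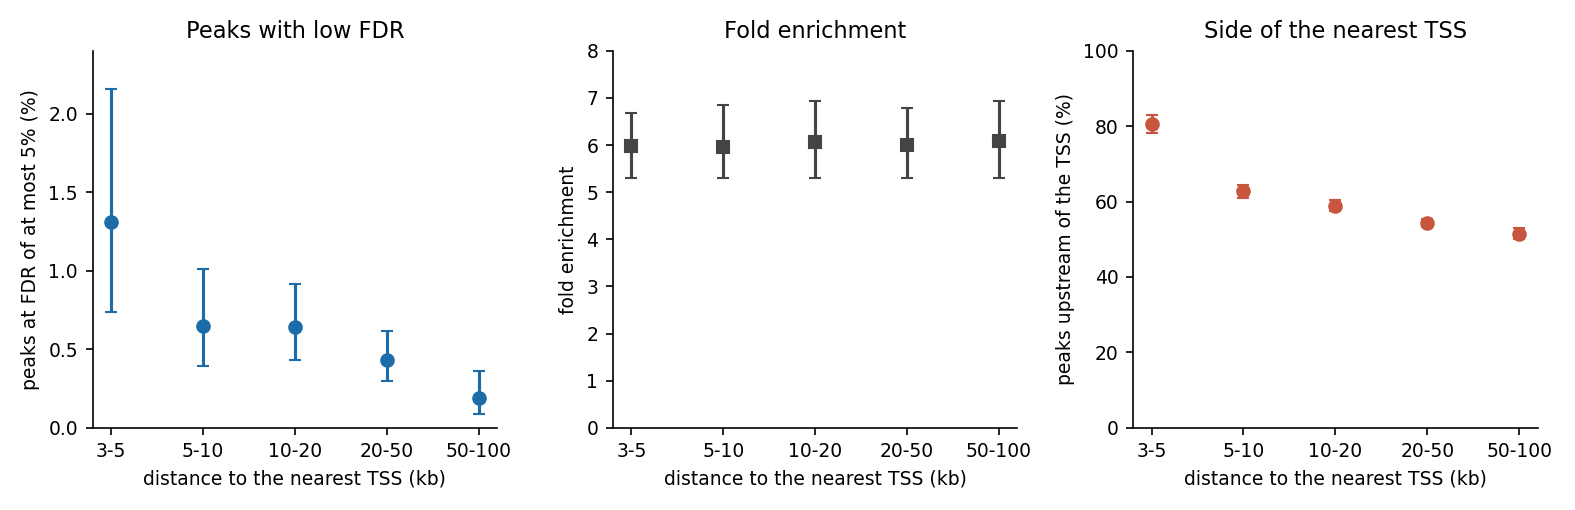
Intergenic peaks within 100 kb by distance to the nearest TSS in kb, for the 1 JARID2 library. Left, share at an FDR of at most 5%; middle, median fold enrichment with its interquartile range; right, share upstream of the TSS; bars at left and right are 95% exact binomial intervals. The low-FDR share was 1.31% in the nearest bin and 0.190% in the farthest, with median fold enrichments of 5.98 and 6.09.

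A few of these peaks lay closer to a TSS than their class says. On plus-strand genes the listed distance ran from the peak's nearer edge, and on minus-strand genes from its farther edge (10541 of 10541 and 9936 of 9936 peaks, to within 1 bp). The smallest listed distance was 3005 bp, since the promoter classes reach 3 kb. Counted from the nearer edge, 122 peaks (0.596%) lay within 3 kb of their TSS, and all 122 were upstream of a minus-strand transcript. Of these 5 had an FDR of at most 5% (4.10%, 1.34 to 9.31). That share was 0.503% over all 20477 peaks and 1.24% over all listed peaks. The 5 were a MEF2D peak at 2277 bp, a MECOM peak at 1998 bp, a CDC20B peak at 2916 bp and peaks named for AL669914.1 (2378 bp) and LINC00686 (2583 bp). A peak 3357 bp wide at TRERF1, a zinc finger regulator gene, ended 281 bp from the TSS although its listed distance was 3637 bp. Without such peaks and with the nearer edge throughout, the 3 to 5 kb bin had 15 of 1204 peaks at an FDR of at most 5% (1.25%, 0.699 to 2.05), so the nearest bin was still the highest. The next bins then turned round, with overlapping intervals. They had 14 of 2909 (0.481%, 0.263 to 0.806) at 5 to 10 kb and 30 of 4469 (0.671%, 0.453 to 0.957) at 10 to 20 kb.

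The limit of 100 kb separated peaks of like height. The 5 peaks just inside it, at 99907 to 99974 bp, had fold enrichments of 5.3 to 7.06 and 10 to 15 tags, and the 5 just outside, at 100022 to 100045 bp, had 5.11 to 7.06 and 11 to 19 tags. With the nearer edge, 14 more intergenic peaks would fall inside.

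Most of the nearest starts were not those of a gene matched to a protein-coding name. Protein-coding genes were nearest to 5301 of the 20477 peaks (25.9%), against 45.2% over all listed peaks. Transcripts known only by a clone name were nearest to 8709 peaks, pseudogenes to 4770, small RNAs to 986 and named long non-coding RNAs to 619. Clone-named transcripts were sorted by their symbol, so whether they code for protein was not known. Peaks nearest to protein-coding genes had an FDR of at most 5% in 0.736% of cases (0.524 to 1.00), those nearest to clone-named transcripts in 0.425% (0.299 to 0.585) and those nearest to pseudogenes in 0.314% (0.176 to 0.518). The median fold enrichments of these 3 kinds were 5.94, 6.06 and 6.06. Of the 103 low-FDR peaks, 39 (37.9%, 28.5 to 48.0) were nearest to a protein-coding gene.

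The 13 peaks with an FDR of 0 had fold enrichments of 4.00 to 21.98 and 41 to 182 tags. The highest, 21.98 with 48 tags (95% Poisson interval 35.4 to 63.6), lay on chromosome 8, 5.25 kb downstream of RPL17P33, a ribosomal protein pseudogene. The nearest protein-coding TSS named anywhere in the list, that of SARAF, was 432 kb away. A peak of 19.43 with 54 tags on chromosome X (12973820 to 12975098) lay 18.1 kb upstream of TMSB4X, which encodes the actin-binding peptide thymosin beta 4. MRTFA, listed under its older name MKL1, encodes an actin-regulated coactivator of serum response factor, and a peak of 17.54 with 49 tags on chromosome 22 (41047786 to 41048494) lay 15.8 kb upstream of it. At the low end, a peak of 4.00 with 182 tags and a width of 5469 bp on chromosome 2 (89834688 to 89840156) was named for the immunoglobulin kappa segment IGKV2D-40, 50.4 kb away.

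Close to MEF2D, which encodes a MADS-box transcription factor, 2 peaks with an FDR of 0 stood side by side. One, at 11.52 with 70 tags, was on chromosome 1 (156472897 to 156473818) with a listed distance of 3198 bp upstream of MEF2D. The other, at 18.19 with 80 tags (156474935 to 156475810), was named for the clone transcript RP11-284F21.8 but its nearer edge lay 4315 bp from the MEF2D TSS. A gap of 1116 bp separated them. Of the 103 peaks at an FDR of at most 5%, 6 had a next listed peak that also reached that limit, these 2 included. MECOM, a zinc finger oncogene, was another such place, with peaks of 9.84 (51 tags, FDR 1.12%) and 7.95 (43 tags, FDR 3.99%) on chromosome 3 (169385744 to 169386867 and 169383404 to 169384772). IGKV2D-40 also named 2 low-FDR peaks, the broad peak above and one of 9.35 with 56 tags (FDR 3.12%), but the peaks next to them had FDRs of 40.65% and 42.86%.

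Of the remaining peaks with an FDR of 0, 1 was nearest to a protein-coding gene. ZFP36L1 encodes an RNA-binding protein that promotes mRNA decay, and a peak of 11.15 with 58 tags on chromosome 14 (69282571 to 69283659) lay 20.5 kb upstream of it. That gene also had a promoter peak of 9.92 with an FDR of 0.38%. The others were named for AL669914.1 (15.52), LINC00638 (14.55), the aldo-keto reductase pseudogene AKR1B10P1 (14.55), RP11-752L20.5 (13.51), AC092687.5 (10.7) and RP11-431K24.2 (9.30). The AL669914.1 peak was 15.4 kb from RNF39 on chromosome 6 (30059108 to 30060099), and the LINC00638 peak 14.3 kb from ZBTB42 on chromosome 14 (105281563 to 105283152). These are distances to the nearest protein-coding TSS that the list names, which may not be the nearest in the genome.

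Several tall peaks rested on fewer tags. A peak 31.0 kb upstream of RNA5SP428, a 5S ribosomal RNA pseudogene, had 19.43 with 27 tags (FDR 0.30%). One 17.9 kb upstream of PGF, the placental growth factor gene, had 15.85 with 31 tags (FDR 0.34%) on chromosome 14 (75439663 to 75440350). RP11-453D21.1 (18.19), RP11-59J16.2 (16.78), STEAP3-AS1 (12.84), RP11-478B11.2 (12.83), CTD-2003C8.2 (12.72) and RP11-105N14.3 (13.25) also named peaks at an FDR of at most 5%. Of the 20 tallest, taking 1 per nearest gene, 4 did not reach that limit: those of RRM2P2 (13.25, FDR 5.91%), RP11-106M7.4 (12.94, FDR 8.80%), a clone transcript on chromosome 16 (13.25, FDR 18.65%) and the semaphorin receptor gene PLXNA1 (12.36, FDR 5.73%). The strongest peak at 50 to 100 kb, upstream of CTD-2091N23.1, had 11.48 with 23 tags and an FDR of 8.10%.

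The 5 peaks with most tags had 153 to 463 tags but fold enrichments of 3.03 to 6.0. A pair on chromosome 10 (42596698 to 42598553 and 42598776 to 42600586), named for the pseudogene KSR1P1, held 463 and 385 tags at 6.0-fold and 3.84-fold, with FDRs of 23.89% and 33.68%. IGKV2D-40 held 182 tags and VN1R7P, a vomeronasal receptor pseudogene, held 155 at 4.07-fold on chromosome 21 (11143541 to 11147890). The TRERF1 peak held 153 tags at 3.03-fold on chromosome 6 (42420070 to 42423426). The peaks on chromosomes 2, 10 and 21 lie close to centromeres, where sequence is rich in repeats. The 14 peaks with at least 80 tags had fold enrichments of 3.03 to 18.19. Of these, 5 had an FDR of at most 5% and 7 had an FDR above 20%. Over all 20477 peaks 0.503% had an FDR of at most 5%, and 2.70% had one of at most 20%. For all listed peaks these shares were 1.24% and 4.15%. Low FDRs were thus more frequent among the 14 than in the whole set, and tags enter the FDR. Repeat annotation and copy number were not used here.

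**Figure D3:**
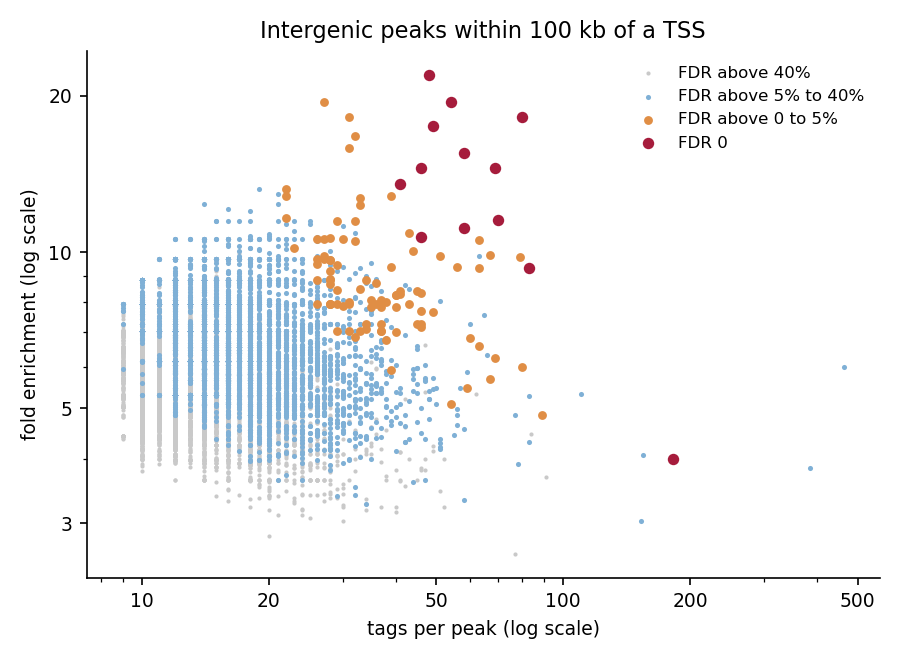
Fold enrichment against tags per peak for all 20477 intergenic peaks within 100 kb, both on log scales, each point 1 peak of the 1 JARID2 library, coloured by FDR. The 13 peaks with an FDR of 0 hold 41 to 182 tags, and the 2 peaks farthest to the right, with 463 and 385 tags, have fold enrichments of 6.0 and 3.84.

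Low-FDR peaks were wider, held more tags and somewhat more often had another listed peak within 10 kb. The 103 peaks at an FDR of at most 5% had a median width of 992 bp and 37 tags, against 499.5 bp and 12 tags for the other 20374. Tags enter the FDR, so this difference is partly built in. Another listed peak lay within 10 kb of 53.4% of them (43.3 to 63.3), of 42.5% of the others (41.9 to 43.2), and of 43.7% of all listed peaks. The interval of the low-FDR peaks holds the share of all listed peaks. Some of these neighbours almost touched, with gaps of 22 bp at KLF9, 77 bp at LRRC8B and 185 bp at TMSB4X. Whether such neighbours are 1 enriched stretch called as separate peaks was not tested, and the shares were not recounted without them. Over the FDR classes the share was 53.3% above 0 to 5%, 47.8% above 5% to 20%, 44.6% above 20% to 40% and 41.7% above 40%. The next peak was itself intergenic for 76 of the 103 (73.8%) and a promoter peak for 17 (16.5%). Over all 20477 peaks these shares were 78.7% and 11.7%. Broad peaks of at least 1.5 kb made up 0.308% of the intergenic peaks within 100 kb and 0.625% of all listed peaks.

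Some of the 39 low-FDR peaks nearest to protein-coding genes belonged to genes outside the lists, which were picked out after their values had been seen. KLF9, a Krüppel-like factor gene, had 7.28 with 46 tags (FDR 0.53%) 4.74 kb upstream on chromosome 9 (73033115 to 73034284). KLF2, of the same family, had 6.24 with 69 tags (FDR 0.32%) 12.8 kb downstream on chromosome 19 (16448427 to 16450422). IRF4, a lymphoid regulator gene, had 7.06 with 37 tags (FDR 1.09%) 3.18 kb upstream on chromosome 6 (387214 to 388558). NR1D1, which encodes a clock repressor, had 8.48 (FDR 2.99%), and TBX21, a T-box gene of T helper cells, had 8.27 (FDR 2.15%). LGALS3, the galectin-3 gene, had 9.31 with 63 tags (FDR 0.29%), and KPNA2, an importin gene, 10.91 with 43 tags (FDR 0.34%).

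Over all genes, 3237 of 20037 protein-coding genes (16.2%) were nearest to at least 1 intergenic peak within 100 kb, and 38 genes (0.19%) to 1 at an FDR of at most 5%. A promoter peak was present at 40.1% (38.4 to 41.8) of the 3237 genes, at 31.8% (31.1 to 32.5) of the 16800 genes without such an intergenic peak, and at 33.1% of all. Genes whose RefSeq name never occurs in the peak list count among the 16800, with neither kind of peak. Their part in these shares was not tested. At an FDR of at most 5% the promoter shares were 2.22% (1.74 to 2.79) and 2.52% (2.29 to 2.77), with overlapping intervals, and 2.47% over all genes. Of the 38 genes with a low-FDR intergenic peak, 2 also had a low-FDR promoter peak, ZFP36L1 and the channel subunit gene LRRC8B (8.70 at the intergenic low-FDR peak, 11.52 at the highest promoter peak). Of the same 38 genes, 14 (36.8%, 21.8 to 54.0) had a promoter peak at any FDR.

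Genes of the TGF-beta and BMP pathway, in which secreted ligands signal through serine kinase receptors to SMAD factors, were nearest to an intergenic peak in 15 of 42 cases (35.7%, 21.6 to 52.0), where 16.2% of all protein-coding genes were. At a −log10 p of at least 5 the count was 8 of 42 (19.0%), against 2.97% of all protein-coding genes. It was 5 (11.9%) for an FDR up to 20%, against 0.789%, and 2 for an FDR up to 5%, against 0.19%. Among the ligand genes, BMP4 had 6.58 with 63 tags (FDR 0.27%) 5.61 kb upstream on chromosome 14 (54429881 to 54431093). BMP7 had 7.85 with 37 tags (FDR 3.91%) 29.1 kb downstream on chromosome 20 (55719499 to 55720810). TGFB2 had 5.60 with 36 tags (FDR 16.35%) 14.3 kb downstream, and INHBB, an activin subunit gene, had 7.95 with 14 tags (FDR 28.7%). Of the antagonists, NOG had 6.18 with 24 tags (FDR 15.59%) 48.3 kb downstream, GREM1 7.60 with 21 tags (FDR 31.18%) and FST 5.04 with 16 tags (FDR 33.56%). ID2, a target gene of BMP signalling, had 8.83 with 17 tags (FDR 16.9%) 17.1 kb downstream on chromosome 2 (8840026 to 8840562). These 8 peaks are those at a −log10 p of at least 5. TGFB2 and FST each had a taller peak below that score, of 6.51 with 28 tags (FDR 46.54%) and 5.30 with 10 tags (FDR 47.66%). Of the 8 peaks, 1 (that of BMP4) lay upstream and 7 downstream, a split that was not planned beforehand. Upstream lay 57.9% of all intergenic peaks within 100 kb at a −log10 p of at least 5. Among those nearest to a protein-coding gene, at any score, the upstream share was 69.8%. The other 7 genes had a highest peak between 4.48 and 7.28 with FDRs of 37.15% to 48.1%: the ligand genes BMP2 (7.28), INHBA (5.26) and BMP5 (5.12), the receptor genes ACVR2B (7.06), TGFBR1 (5.04) and TGFBR2 (4.48), and the signal transducer gene SMAD2 (6.18). Outside the list, and noted after its value was seen, PMEPA1, a TGF-beta induced gene, had 6.01 with 80 tags (FDR 2.79%), and BMP10 had 5.46 with 59 tags (FDR 4.4%).

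WNT ligands, receptors and their modulators were nearest to an intergenic peak in 15 of 45 cases (33.3%, 20 to 49.0), where 16.2% of all protein-coding genes were. At a −log10 p of at least 5 the count was 4 of 45 (8.89%), against 2.97% of all. It was 0 of 45 for an FDR up to 20%, against 0.789%, and 0 for an FDR up to 5%, against 0.19%. Their highest peaks were at the ligand gene WNT16 (8.25 with 28 tags, FDR 33.27%), RSPO4, which encodes a WNT-enhancing R-spondin (7.95 with 10 tags), and SFRP4, which encodes a secreted antagonist (7.95 with 12 tags). Chemokine and cytokine genes had 11 of 34 (32.4%, 17.4 to 50.5), against the same 16.2%. They had 0 of 34 at an FDR up to 20%, against 0.789%, and 0 at an FDR up to 5%, against 0.19%. With shares this low over all genes, a 0 in lists of this size does not set them apart. CSF1, the macrophage growth factor gene, led them with 7.28 and 21 tags (FDR 27.2%), followed by TSLP (6.77) and CCL28 (6.26). At a −log10 p of at least 5, 1 of 34 remained (2.94%), which is near the 2.97% of all genes.

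Developmental transcription factor genes outside the HOX clusters, the classical PRC2 targets, were nearest to an intergenic peak in 41 of 135 cases (30.4%, 22.8 to 38.9), where 16.2% of all protein-coding genes were. At a −log10 p of at least 5 the count was 10 of 135 (7.41%), against 2.97% of all. At an FDR up to 5% it was 0 of 135, where 0.19% of all protein-coding genes had such a peak. With so low a share over all genes, this 0 does not set the list apart. SOX5 had 9.71 with 15 tags (FDR 27.74%) 24.0 kb upstream on chromosome 12 (24127449 to 24127960), GATA3, a luminal breast regulator gene, 8.77 with 12 tags (FDR 39.47%), and POU4F2 8.01 with 20 tags (FDR 23.88%). FOXQ1, a forkhead gene, was the 1 gene of the list at an FDR of at most 20% (0.741%, against 0.789% of all), with 5.99, 45 tags and an FDR of 8.67%. In contrast, 1 of 39 HOX genes (2.56%, 0.0649 to 13.5) was nearest to such a peak, HOXC13 at 7.00 with 16 tags, and HOX genes stand close together. The amount of intergenic sequence around each gene was not used here, and its part in these shares was not tested.

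The other lists stood closer to the share of all genes, or had too few genes to tell. PRC2 subunit genes had 3 of 14 (21.4%, 4.66 to 50.8), with MTF2 at 6.40, EPOP at 6.14 and EED at 4.17, all at an FDR above 40%. Cell cycle genes had 8 of 50 (16.0%, 7.17 to 29.1). Among them the cyclin D1 gene CCND1 had 8.42 with 41 tags (FDR 1.01%) 4.06 kb upstream on chromosome 11 (69451087 to 69451800), E2F7 had 8.0 and the checkpoint kinase gene BUB1 7.06. AP-1 and YAP/TEAD genes had 2 of 22 (9.09%, 1.12 to 29.2). FOSL2, an AP-1 subunit gene, had 7.28 with 45 tags (FDR 3.23%) 30.9 kb upstream on chromosome 2 (28582943 to 28584372), and BATF3 5.30 with 9 tags.

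The lists of mesenchymal and epithelial genes had few genes nearest to these peaks, with intervals that hold the 16.2% of all protein-coding genes. Mesenchymal and EMT regulator genes had 3 of 24 (12.5%, 2.66 to 32.4), with MSN, the moesin gene, at 7.06, PRRX1 at 5.20 and TGFBI at 3.88. Epithelial adhesion genes had 2 of 32 (6.25%, 0.766 to 20.8), the desmosomal gene PKP1 at 7.06 and the tight junction gene CLDN1 at 5.92. Interferon genes had 1 of 21 (4.76%, 0.12 to 23.8), the lambda interferon gene IFNL1 at 9.49 with 21 tags (FDR 7.73%). Olfactory receptor genes had 70 of 390 (17.9%, 14.3 to 22.1), led by OR5AS1 (8.83), OR2M4 (8.18) and OR1N2 (8.17). Numbered zinc finger genes had 65 of 477 (13.6%, 10.7 to 17.0), led by ZNF718 (9.71), ZNF683 (8.73) and ZNF728 (8.08), and ZNF746 (7.28, FDR 4.38%) was their 1 gene at an FDR of at most 5%.

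**Figure D4:**
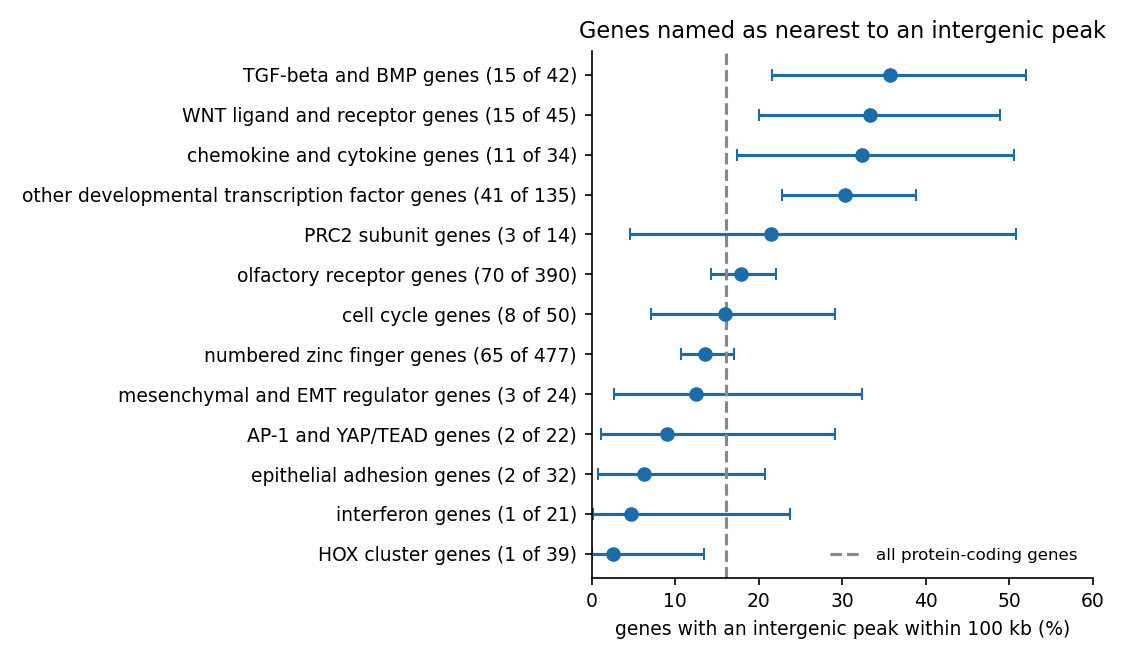
Share of the genes in each list that are nearest to at least 1 intergenic peak within 100 kb, in percent, from the 1 JARID2 library. Points are shares, bars are 95% exact binomial intervals and the dashed line is the 16.2% of all protein-coding genes. TGF-beta and BMP, WNT, chemokine and cytokine, and developmental transcription factor genes lie between 30.4% and 35.7%, and HOX genes at 2.56%.

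Peaks were spread over many starts. The 20477 peaks were given to 10496 genes, of which 5612 (53.5%) had 1 peak, 2410 had 2 and 2474 had 3 or more. The genes with most were RP11-774G5.1 with 13, RP11-1003J3.1 and RN7SL58P with 12 each, and 7 genes with 11. RP11-1003J3.1 had 1 peak at an FDR of 2.88%, and the lowest FDR at RP11-774G5.1 was 20.96%. Among protein-coding genes, ZWINT, a kinetochore gene, and PCLO, a presynaptic scaffold gene, had 9 each, with median fold enrichments of 5.80 and 6.06 and no FDR under 20%.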

How the data were processed

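The authors' annotated peak list of the JARID2 library was used; the input library itself was not analysed here. The submitters' processing notes name ChIPseeker, MACS2, MACS, bcl2fastq and Bowtie (0.12.8), and the build hg19; calling thresholds were not stated. Per the file headers, the deposited values are a tag count per peak, not normalised, a fold enrichment (a linear ratio) and an FDR in percent. A further deposited score lost its column name; because it follows the tag count and starts at 30, it was taken for 10 times −log10 p. The depth of the library is unknown.

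The rule was applied to the deposited class and distance. Symbols were matched to RefSeq names of GRCh38.p14 (16847 of 26257 symbols matched; 20037 protein-coding genes; no coordinates taken). Shares carry Clopper-Pearson intervals. Medians were compared in the alternatives with order-statistic intervals, and a count of 0 allows 3 counts. Interval and merging code was tested on simulated data. Python 3.11.15, pandas 2.3.3 and SciPy 1.17.1 were used. No sequence of hg19 was used here.

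Peaks, limits, the 13 gene lists and the members were chosen with earlier results of these data known. Genes named are those of every peak with an FDR of 0, the 20 tallest peaks with 1 per gene, the 5 with most tags, up to 3 per list, the strongest per distance bin, and the genes with most peaks; others are named where a count is small or are said to have been noted afterwards. Alternatives were a stricter score, an FDR limit, a distance of 50 kb, merging, protein-coding neighbours only, the nearer peak edge with and without peaks within 3 kb, and leaving out tag-rich stretches. The last 3 were added after the data were examined.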

Additional observations from a re-analysis of the deposited data

How the results depend on the processing

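The share of listed peaks (30.5%), the median fold enrichment (6.02), the share at an FDR of at most 5% (0.503%), the upstream share (57.4%) and the median distance (24585 bp) stayed inside their 95% intervals on merging peaks under 1 kb apart, on counting from the nearer edge with or without peaks within 3 kb, and without peaks within 100 kb of the 5 tag-richest. With a −log10 p of at least 5 the share was 26.5%, the median fold 7.06, the low-FDR share 4.49% and the distance 22867 bp. With an FDR of at most 20% they were 19.9%, 7.95, 18.6% and 21814 bp, and the upstream share 59.7%; fewer peaks enter both. Below 50 kb the share was 23.5%, the upstream share 59.1% and the distance 18056 bp. For protein-coding neighbours only they were 7.90%, 5.94, 0.736%, 69.8% and 19765 bp. Beyond what the settings remove, the cause was not tested. Gene list counts stayed within 1.5 times for all 14 totals on merging and for 13 below 50 kb, where the HOX count was 0. Of the 14, 13 fell further at a −log10 p of at least 5 and 13 at an FDR of at most 20%. Without the tag-rich stretches 7 of 4730 peaks at 50 to 100 kb (0.148%) had an FDR of at most 5%. No paired analysis was possible because there was 1 library in each group. A median of 12 tags limits the precision of single peaks.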

Other observations

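The share of intergenic peaks within 100 kb at a low FDR was also counted per chromosome. The lowest and highest shares are given, chosen after their values were seen, and each of their intervals holds the 0.503% over all 20477. Chromosome 13 had 0 of 596 such peaks at an FDR of at most 5%, which allows a share of up to 0.503%, and chromosome 15 had 0 of 258, which allows 1.16%. Chromosome 16 had 4 of 222 (1.80%, 0.493 to 4.55), chromosome 17 6 of 513 (1.17%, 0.430 to 2.53) and chromosome 20 7 of 602 (1.16%, 0.469 to 2.38). Of all 23 chromosomes counted, 2 had an interval without that value, narrowly: chromosome 4 with 3 of 1749 (0.172%, 0.0354 to 0.5004) and chromosome 8 with 10 of 933 (1.07%, 0.515 to 1.96). The set made up the largest part of the peaks on X (39.7%) and chromosome 13 (37.2%), and the smallest on chromosomes 19 (17.7%) and 22 (18.2%). MDA-MB-231 cells are aneuploid, and copy number was not used here.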
